A study of Mus musculus with 68 samples.

Results

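Extraembryonic ectoderm of mouse embryos at E6.5 was compared between embryos labelled Ezhip mKO and wild-type (WT) embryos. The comparison rests on 4 libraries, 2 per genotype, of the 68 libraries of the series, and the libraries were taken by their labels and not by any measured value. The other libraries of the same table served as context. They were 2 extraembryonic ectoderm libraries of Ezhip mHet embryos and 6 epiblast libraries, with 2 for each genotype. The labels name no strain, allele, Cre driver or sex, do not spell out the prefix of mKO and mHet, and list no agent for these embryos. Expression was measured by Smart-seq2, which amplifies full-length cDNA of polyadenylated RNA from very small samples, directly on lysed tissue. No label says whether a library is 1 embryo or a pool, or whether libraries of a genotype come from separate litters, so p-values measure only the spread between these libraries.

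Extraembryonic ectoderm is the trophoblast tissue that sits above the epiblast in the egg cylinder. It holds the trophoblast stem cell state through factors such as CDX2, EOMES and ELF5, sends BMP4 to the epiblast, and forms the ectoplacental cone, giant cells and later the placenta. EZHIP is an inhibitor of Polycomb repressive complex 2 (PRC2), the methyltransferase that deposits H3K27me3. In the mouse, H3K27me3 laid down in the oocyte silences the maternal allele of a small set of genes in the early embryo, and in extraembryonic tissue that silencing is kept, which is called non-canonical imprinting. The comparison asks, as far as the design text of the study gives its purpose, whether loss of Ezhip is followed by altered expression in this tissue.

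The labelled tissue was checked against marker genes first. All 12 extraembryonic ectoderm markers found in the table stood at 1 FPKM or more (read fragments scaled to transcript length and library total) in each of the 6 extraembryonic ectoderm libraries, and their mean log2(FPKM + 1) lay between 4.13 and 4.62. In the epiblast libraries the same mean lay between 0.54 and 2.35. Elf5, a transcription factor that marks trophoblast stem cells, stood at 97.5 and 144 FPKM in WT and at 113 and 135 FPKM in mKO. The tissue label therefore fits its markers in both genotypes. Ezhip itself, listed as AU022751, stood at 0.18 and 0.69 FPKM in WT and at 0.25 and 0 FPKM in mKO. It did not pass the filter on low values, and at this level it checks no genotype label.

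The 4 libraries differed in transcripts of neighbouring tissue. WT library 1 carried epiblast transcripts. Tdgf1, the Nodal co-receptor Cripto, stood there at 45.1 FPKM, which is 32.1% of the WT epiblast mean, against 3.74 FPKM in WT library 2 and 0.25 and 0.76 FPKM in mKO. Pou5f1 and Nanog, both pluripotency factors, followed the same order, with 18.3 and 12.6 FPKM in WT library 1, 2.37 and 0.90 FPKM in WT library 2, and at most 0.48 FPKM in mKO. The streak gene T stood at 13.7 FPKM in WT library 1, 1.92 FPKM in WT library 2 and 0.12 and 0.25 FPKM in mKO. Fgf5, an epiblast ligand, stood at 5.65 and 0.70 FPKM in WT and was listed at 0 in both mKO libraries. Utf1 and Pou3f1, also fixed as epiblast markers, were at 97.4 to 240 FPKM and 5.35 to 48.1 FPKM across the extraembryonic ectoderm libraries and did not separate the tissues. Over the 6 defining epiblast markers the mean log2(FPKM + 1) was 4.41 and 2.81 in WT and 1.95 and 2.22 in mKO, beside 5.20 to 5.87 in the epiblast libraries.

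The visceral endoderm, the epithelium that wraps the egg cylinder, was represented mainly in mKO library 2. Its apolipoprotein genes Apoc2, Apom and Apoa4 stood there at 71.1, 30.1 and 21.0 FPKM, against at most 2.11, 0.58 and 0.48 FPKM in the other WT and mKO libraries. Ttr, which encodes the thyroid hormone carrier transthyretin, stood at 6.34 FPKM in mKO library 2, at 0.50 FPKM in mKO library 1 and was listed at 0 in both WT libraries. Over the 10 defining visceral endoderm markers the summed level was 2.37 and 3.17 FPKM in WT and 4.95 and 73.5 FPKM in mKO. In mKO library 2, 7 of these 10 markers reached 1 FPKM and 1 was listed at 0, and Afp was at or near 0 throughout. Genes of decidua and maternal blood summed to 1.42 to 3.16 FPKM over 24 genes in the 6 extraembryonic ectoderm libraries.

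**Figure D1:**
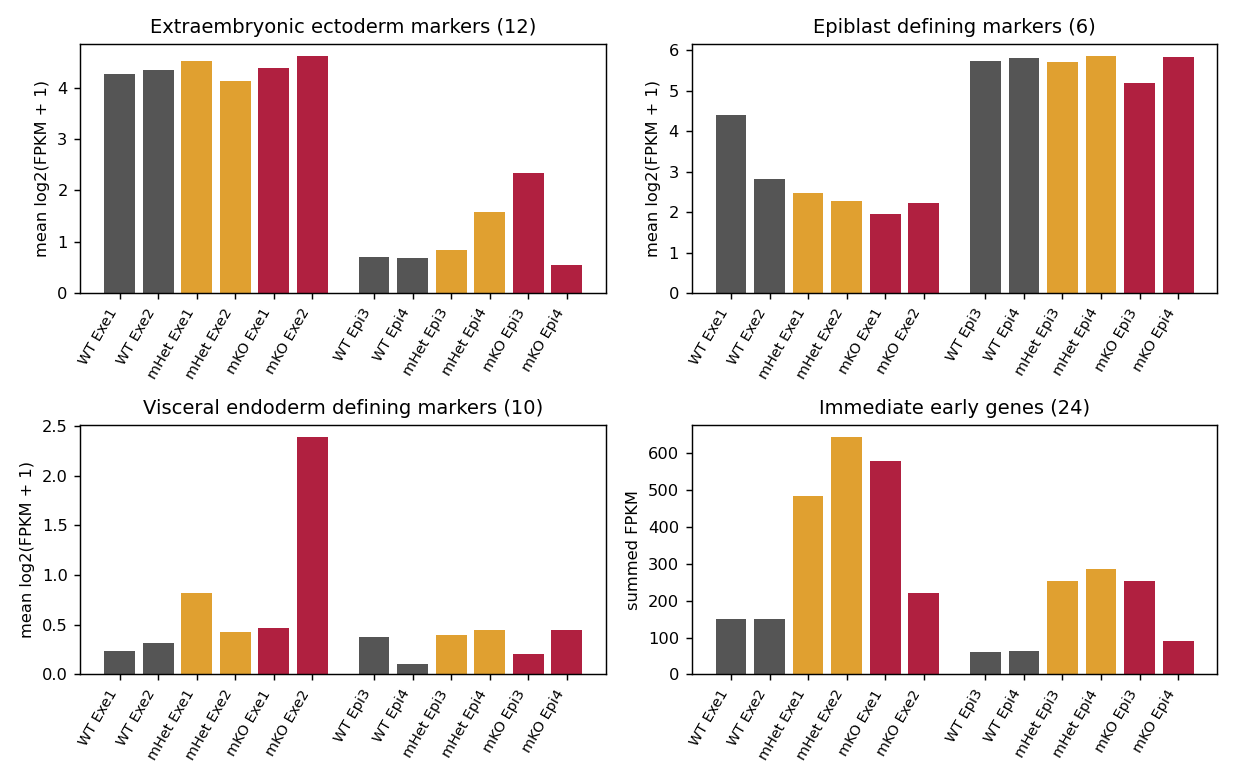
Each bar is 1 library (grey WT, yellow mHet, red mKO), with extraembryonic ectoderm on the left and epiblast on the right of each panel. The first panels show the mean log2(FPKM + 1) of a marker list and the last the summed FPKM of immediate early genes. WT library 1 is highest among the extraembryonic ectoderm libraries for epiblast markers (4.41) and mKO library 2 for visceral endoderm markers (2.39).

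Other library properties also differed within and between the genotypes. Rn45s, the ribosomal RNA precursor, took 1.84% and 2.43% of the summed FPKM in WT and 8.11% and 3.32% in mKO, and 8845 to 9382 genes reached 1 FPKM across these 4 libraries. Y-linked transcripts summed to 34.6 FPKM in WT library 1 and 44.1 FPKM in mKO library 2 and to 0.16 FPKM or less in the other 4 extraembryonic ectoderm libraries, so each genotype compared held 1 library with and 1 without them. The table gives FPKM only, so read depth and counting error are unknown. The part that neighbouring tissue and these library properties play in the results that follow was not tested beyond the fits named beside them. In such bulk samples a smaller share of cells of a type and less RNA per cell cannot be told apart.

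No gene passed the test between mKO and WT extraembryonic ectoderm. Of 11028 genes tested with limma on log2(FPKM + 1), 0 (0%) had a Benjamini-Hochberg adjusted p under 0.05, and the smallest adjusted p was that of Ccl20, at 0.127. At an unadjusted p under 0.05 there were 854 genes (7.74%), of which 267 (2.42% of all tested) were higher and 587 (5.32%) lower. The 2 mKO libraries lay above both WT libraries for 1543 genes (14%) and below both for 4122 genes (37.4%). The median log2 change over all genes was -0.19, so most genes sat slightly lower in mKO, and with libraries scaled by the median ratio this median was 0.00 and the unadjusted counts became 492 higher and 502 lower. Without 1 library at a time the unadjusted counts were 145 higher and 220 lower (WT library 1), 168 and 402 (WT library 2), 371 and 1555 (mHet library 1), 372 and 1553 (mHet library 2), 255 and 196 (mKO library 1), and 301 and 936 (mKO library 2), so without mKO library 1 higher genes outnumbered lower ones. The count of 0 was sensitive to the libraries in the fit: it was 9 without mKO library 1, 1 without WT library 2, 15 without either mHet library, which enter only the estimate of spread, and 20 without the pair of libraries richest in Rn45s. Without WT library 1 and mKO library 2 together, the libraries with most epiblast and visceral endoderm transcripts, 0 genes passed and the unadjusted counts were 192 higher and 452 lower. For a single gene, 2 against 2 libraries cannot give an exact permutation p below 0.333. All values that follow for mKO against WT therefore belong to genes that did not pass.

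Markers of neighbouring tissue were among the genes of small unadjusted p. Of 18 epiblast markers kept, 6 (33.3%) were lower and 0 higher at an unadjusted p under 0.05, and of 15 visceral endoderm markers kept, 5 (33.3%) were higher and 0 lower. Otx2, a homeobox factor of the epiblast and anterior visceral endoderm, stood at 2.82 and 1.79 FPKM in WT and was listed at 0 in both mKO libraries. Spink3, a serine protease inhibitor of the visceral endoderm, was listed at 0 in both WT libraries and stood at 2.55 and 20.8 FPKM in mKO, with 3.25 and 2.78 FPKM in mHet. Without WT library 1 and mKO library 2 together, 3 of the 18 epiblast markers were lower and 0 of the 15 visceral endoderm markers were higher at that level.

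The genes imprinted through H3K27me3 are the group the study's question points to most directly, and 6 of the 7 listed were in the table, all of them kept. Of these 6, 5 had a log2 change above 0 and 1 below, against 33.5% of all genes above 0, and their median log2 change was 0.51, against -0.19 over all genes. One of the 6, Smoc1, had an unadjusted p under 0.05, against 2.42% of all genes higher at that level. None had an adjusted p under 0.05. Promoter sequence is shown for a CpG-rich and a CpG-poor member of the group, since DNA methylation of the promoter is not what silences these genes in the oocyte. The windows run from 250 bases before to 50 bases after the first start site listed by RefSeq (GRCm38.p6), 5′ to 3′ on the gene's strand, with every CG in capitals. In mouse extraembryonic ectoderm several of these genes are known to be read also from starts within retroviral long terminal repeats, which these windows need not include.
Gab1 (chr8:80880470-80880769, minus strand): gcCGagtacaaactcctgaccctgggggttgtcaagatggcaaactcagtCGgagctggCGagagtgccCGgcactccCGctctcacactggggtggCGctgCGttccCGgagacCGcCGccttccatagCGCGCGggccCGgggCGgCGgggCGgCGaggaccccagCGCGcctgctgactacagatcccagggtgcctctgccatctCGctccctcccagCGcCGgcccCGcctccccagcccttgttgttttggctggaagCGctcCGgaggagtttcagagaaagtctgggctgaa
Slc38a4 (chr15:97055907-97056206, minus strand): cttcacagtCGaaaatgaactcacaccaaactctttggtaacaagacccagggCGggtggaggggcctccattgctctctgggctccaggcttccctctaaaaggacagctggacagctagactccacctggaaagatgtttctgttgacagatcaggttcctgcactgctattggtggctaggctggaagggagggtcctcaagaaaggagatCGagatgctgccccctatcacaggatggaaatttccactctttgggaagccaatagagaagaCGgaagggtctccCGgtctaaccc
The Gab1 window held 26 CG pairs, and 16.9% of the 32851 promoter windows in the table held at least as many. The Slc38a4 window held 5, and 62% of windows held at least as many. Windows of Jade1, Sfmbt2 and Xist held 18, 9 and 15.

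Smoc1, which encodes a secreted calcium-binding matrix protein that modulates BMP signalling, stood at 1.76 and 1.21 FPKM in WT and at 5.04 and 6.14 FPKM in mKO. Both mKO libraries were above all 4 other extraembryonic ectoderm libraries, since the mHet libraries stood at 1.21 and 1.17 FPKM. Its log2 change was 1.41 (SE 0.25) with an adjusted p of 0.168, and it kept a log2 change of 1.25 or more under every alternative run. In the epiblast it stood at 0.55 and 0.71 FPKM in WT and at 1.10 and 0.79 FPKM in mKO. That is, Smoc1 was low in the epiblast of each genotype.

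Gab1, an adaptor that links receptor tyrosine kinases to ERK and PI3-kinase signalling and is needed for the placenta, stood at 22.6 and 26.4 FPKM in WT and at 44.2 and 48.1 FPKM in mKO. The groups did not overlap, but the mHet libraries stood on either side of WT, at 41.0 and 16.6 FPKM. The log2 change was 0.89 (SE 0.50), with an adjusted p of 0.682. Phf17, now named Jade1, which encodes a scaffold of a histone acetyltransferase complex, stood at 29.6 and 16.7 FPKM in WT and at 35.7 and 31.1 FPKM in mKO. Its mHet libraries stood at 28.2 and 7.86 FPKM and its log2 change was 0.56 (SE 0.61, adjusted p = 0.785).

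The remaining 3 members overlapped between the genotypes. Slc38a4, an amino acid transporter of the placenta, stood at 51.0 and 52.1 FPKM in WT and at 47.3 and 72.3 FPKM in mKO. Sfmbt2, a Polycomb-group gene needed for trophoblast maintenance, stood at 32.3 and 22.9 FPKM in WT and at 29.5 and 22.6 FPKM in mKO, with a log2 change of -0.07 (SE 0.58) that turned positive under median ratio scaling. Over 41 microRNA loci within Sfmbt2 the summed level was 32.8 and 34.7 FPKM in WT, 67.6 and 58.0 FPKM in mKO, and 33.0 and 113 FPKM in mHet. The highest sums were in mHet library 2 and mKO library 1, the libraries with the highest Rn45s shares (11.6% and 8.11%), and a link was not tested. Which RNA gave the reads over such loci is unknown, the copies are near identical, and the values are not levels of mature microRNAs.

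Xist, the RNA that coats the inactive X chromosome, stood at 0.21 and 7.28 FPKM in WT and at 10.6 and 0.66 FPKM in mKO. The low library of each genotype was the one with Y-linked transcripts, and the mHet libraries, which lack them, stood at 6.34 and 32.5 FPKM. Xist and its antisense partner Tsix cannot be told apart without strand, and Tsix followed the same order, with 0.94 and 14.7 FPKM in WT and 13.4 and 1.66 FPKM in mKO. Among libraries without Y-linked transcripts, Xist was thus 7.28 FPKM in WT and 10.6 FPKM in mKO, and among those with them 0.21 and 0.66 FPKM, 1 library each.

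**Figure D2:**
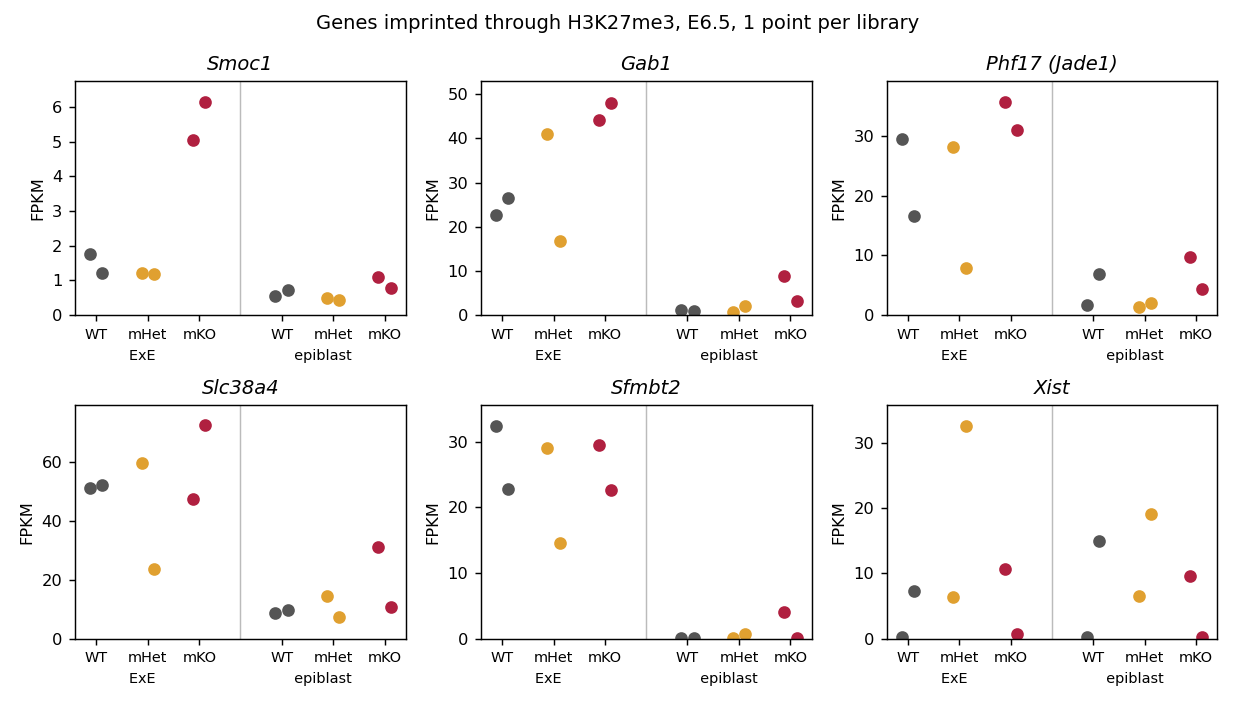
Each point is the FPKM of 1 library (grey WT, yellow mHet, red mKO), extraembryonic ectoderm (ExE) on the left and epiblast on the right of each panel. Smoc1 is at 5.04 and 6.14 FPKM in mKO against 1.76 and 1.21 FPKM in WT, and Xist is near 0 in the libraries with Y-linked transcripts.

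The 10 named genes that were higher in mKO were chosen by smallest p among genes whose groups did not overlap, so their direction and separation are not results. They were Bcl3, Smoc1, Mir425, Hspa1a, Lmna, Lgals3, Bhlhe40, Crlf2, Snord1c and Mef2d. Adjusted p lay between 0.168 for Bcl3, Smoc1 and Mir425 and 0.339 for Mef2d. Of these 10, 9 had a WT epiblast mean under 1 FPKM.

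Bcl3, an atypical IκB protein that acts as a cofactor of NF-κB, stood at 0.70 and 1.00 FPKM in WT, 1.71 and 1.77 FPKM in mHet, and 3.27 and 4.23 FPKM in mKO. The 3 genotypes did not overlap, and the log2 change was 1.36 (SE 0.23). The number of all genes with such an order was not counted. Bhlhe40, a repressor of the helix-loop-helix family that answers to hypoxia and to the circadian clock, had the same order, with 1.60 and 2.22 FPKM in WT, 3.33 and 2.94 FPKM in mHet, and 5.16 and 6.54 FPKM in mKO.

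Lgals3, which encodes the secreted lectin galectin-3, stood at 3.98 and 5.18 FPKM in WT, 9.26 and 5.21 FPKM in mHet, and 32.4 and 17.5 FPKM in mKO. The group means were 4.58 ± 0.84 and 24.9 ± 10.5 FPKM (SD, n = 2), a log2 change of 2.17 (SE 0.45, limma adjusted p = 0.263). Lmna, the gene of lamins A and C, stood at 1.19 and 1.48 FPKM in WT, 7.95 and 3.98 FPKM in mHet, and 9.34 and 7.06 FPKM in mKO. For Lmna both mHet libraries thus lay above both WT libraries, and mHet library 1 lay within the mKO range.

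Hspa1a, an inducible heat shock protein of the Hsp70 family, stood at 0.33 and 1.02 FPKM in WT, 2.54 and 5.30 FPKM in mHet, and 10.6 and 3.55 FPKM in mKO. It has a near-identical copy, so its own share of the reads is uncertain. Crlf2, the receptor of the cytokine TSLP, stood at 0.62 and 1.82 FPKM in WT, 2.63 and 6.34 FPKM in mHet, and 5.70 and 4.97 FPKM in mKO. Mef2d, a MADS-box transcription factor, stood at 0.74 and 1.04 FPKM in WT, 2.96 and 1.93 FPKM in mHet, and 6.73 and 3.05 FPKM in mKO.

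A pair of the 10 were loci of small RNAs. Smart-seq2 is made to read longer polyadenylated RNA, and which RNA gave these reads is unknown. Snord1c, a box C/D snoRNA, was listed at 0 in both WT libraries and stood at 6.97 and 1.62 FPKM in mKO and 2.53 and 4.79 FPKM in mHet. Its highest values were in mKO library 1 and mHet library 2, the libraries with the highest Rn45s shares (8.11% and 11.6%). A link was not tested. Mir425 was listed at 0 in both WT libraries and in mHet library 2, and stood at 1.92 and 3.40 FPKM in mKO. Its mature arms are shown to identify the locus, with the seed (bases 2 to 8) in capitals, from RefSeq (GRCm38.p6).
mmu-miR-425-5p (chr9:108568789-108568811, plus strand): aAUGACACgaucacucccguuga
mmu-miR-425-3p (chr9:108568830-108568850, plus strand): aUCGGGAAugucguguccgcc
The locus is shorter than a usual mRNA, so few fragments can give a value of this size, and how many is unknown.

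The 10 named genes that were lower in mKO were chosen in the same way. They were Ccl20, Mtfr1, Car14, Sh3bgrl, Ifitm1, Arxes1, Tspan6, Pir, Slc40a1 and Cthrc1. Adjusted p lay between 0.127 for Ccl20 and 0.263 for Cthrc1. Of these, 4 lie on the X chromosome and 6 had a WT epiblast mean above both WT extraembryonic ectoderm libraries.

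Ccl20, a chemokine that signals through CCR6, stood at 4.08 and 3.67 FPKM in WT and 11.6 and 5.08 FPKM in mHet, and was listed at 0 in both mKO libraries. It was the one named lower gene for which both mHet libraries exceeded both WT libraries. Its difference on the log2(FPKM + 1) scale was -2.28 (SE 0.32), and its adjusted p over the alternatives ran from 0.00402 to 1.

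Mtfr1, a regulator of mitochondrial fission, stood at 35.8 and 37.5 FPKM in WT, 8.72 and 2.58 FPKM in mHet, and 4.23 and 3.92 FPKM in mKO. The group means were 36.6 ± 1.18 and 4.07 ± 0.22 FPKM (SD, n = 2), a log2 change of -2.89 (SE 0.44, limma adjusted p = 0.128). In the epiblast the gene stood at 31.9 and 39.5 FPKM in WT, 36.9 and 24.2 FPKM in mHet, and 37.6 and 40.3 FPKM in mKO. Its low values thus lay in the 4 mHet and mKO extraembryonic ectoderm libraries, and both WT extraembryonic ectoderm libraries stood as high as the epiblast.

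Slc40a1, which encodes the iron exporter ferroportin, stood at 10.9 and 13.8 FPKM in WT, 11.2 and 4.80 FPKM in mHet, and 1.56 and 2.16 FPKM in mKO. In the WT epiblast it stood at 1.99 and 2.91 FPKM, below both WT extraembryonic ectoderm libraries. Ifitm1, an interferon-induced transmembrane protein, stood at 19.8 and 10.4 FPKM in WT, 7.42 and 5.95 FPKM in mHet, and 3.22 and 0.44 FPKM in mKO. Its log2 change was -2.64 (SE 0.48), with 11.9 and 16.8 FPKM in the WT epiblast.

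Others of the 10 were strongly expressed in the epiblast. Car14, a membrane-bound carbonic anhydrase, stood at 10.4 and 3.81 FPKM in WT and at 0 and 0.10 FPKM in mKO, with 107 and 106 FPKM in the WT epiblast. Cthrc1, a secreted collagen-repeat protein, stood at 4.13 and 2.17 FPKM in WT and at 0.21 and 0.23 FPKM in mKO, with 41.5 and 37.5 FPKM in the WT epiblast. For both genes the WT library with more epiblast markers was the higher of the pair, and the part of epiblast transcripts in either was not tested. In the 6 extraembryonic ectoderm libraries alone, the unadjusted counts over all genes were 148 higher and 382 lower. They were 49 and 63 once the epiblast marker level, Utf1 and Pou3f1 included, entered that fit as a term. That level was 4.41 and 2.81 in WT and 1.95 and 2.22 in mKO, so the term runs partly with genotype. For all genes and for each list below, that fit cannot tell genotype from epiblast level. The visceral endoderm level was a term in the fit of all 12 libraries. The counts there were 315 and 1246, against 267 and 587 without that term. That level was 2.39 in mKO library 2 and at most 0.82 in any other library, so the term stands largely for that library. The fit cannot tell visceral endoderm transcripts from other traits of mKO library 2.

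**Figure D3:**
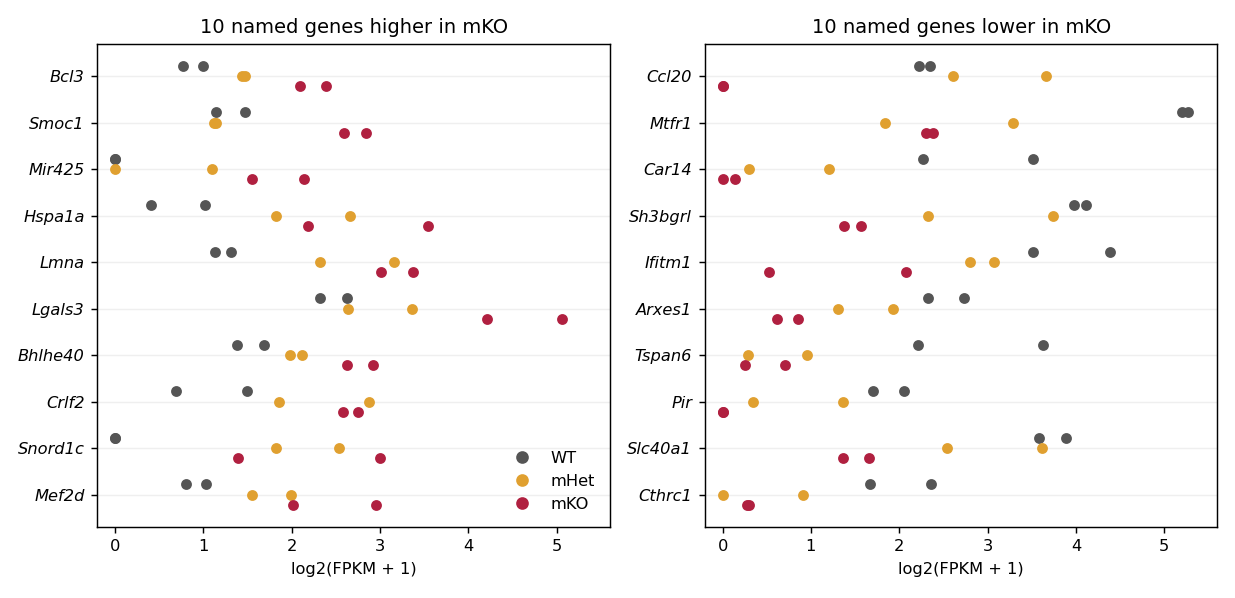
Each point is 1 extraembryonic ectoderm library on the log2(FPKM + 1) scale (grey WT, yellow mHet, red mKO), for the 10 named genes in each direction. The genes were chosen for non-overlapping WT and mKO libraries, and Smoc1 has mHet at the WT level and Ccl20 has mHet above WT.

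The X chromosome carries the second observation on the lower genes, made after the values were seen. Of 423 X-linked genes tested, Xist and Tsix left out, 56 (13.2%) were lower and 3 (0.71%) higher at an unadjusted p under 0.05, against 5.32% and 2.42% of all genes and 5.00% and 2.51% of the 10424 autosomal genes. No X-linked gene had an adjusted p under 0.05. Of the 56, 18 (32.1%) had a WT epiblast level at least 4 times the mHet extraembryonic ectoderm level, on FPKM + 1. So did 45 of the 423 X-linked genes, 16.5% of the 587 lower genes and 2.965% of all genes. The part of epiblast transcripts in the X-linked count was not tested beyond the fits given below. The count of 56 fell when either WT library or mKO library 1 was left out and rose when either mHet library was. The number of lower genes over all genes moved the same way each time. The median log2 change was -0.30 over X-linked and -0.18 over autosomal genes. Over X-linked genes it was -0.27 without WT library 1, -0.33 without WT library 2 and -0.23 without mKO library 1. Over all genes the same fits gave -0.15, -0.22 and -0.07. The X held the highest percentage of lower genes of the 20 chromosomes, followed by chromosome 13 with 8.86%. Measured as the X median less the autosomal median of the difference from the WT mean, mKO libraries 1 and 2 stood at -0.07 and -0.20 and mHet libraries 1 and 2 at -0.02 and -0.21. One mHet library thus stood as low as mKO library 2.

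Libraries could also be set side by side by the presence of Y-linked transcripts, with 1 library per genotype and no test. With them (mKO library 2 and WT library 1), the median X-linked log2 difference was -0.32 and the autosomal one -0.12. Without them (mKO library 1 and WT library 2), the medians were -0.42 and -0.37. In the 6 extraembryonic ectoderm libraries alone, 41 X-linked genes were lower and 1 higher at an unadjusted p under 0.05. With the epiblast marker level added as a term, 3 were lower and 4 higher, against 63 lower genes (0.572%) over all genes. As given above, that term runs partly with genotype. The visceral endoderm level was a term in the fit of all 12 libraries, where 56 were lower and 3 higher without it. With it 70 (16.55%) were lower and 11 (2.6%) higher, against 11.3% and 2.86% of all genes. As given above, that term stands largely for mKO library 2.

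Among single X-linked genes, Sh3bgrl, which encodes a small SH3-binding protein, stood at 16.2 and 14.7 FPKM in WT, 12.3 and 4.02 FPKM in mHet, and 1.59 and 1.95 FPKM in mKO. In the epiblast it stood at 24.1 and 18.9 FPKM in WT and 17.7 and 19.3 FPKM in mKO. The part of epiblast transcripts in its values was not tested. Klhl13, an adaptor of a cullin ubiquitin ligase, stood at 13.6 and 12.0 FPKM in WT, 11.7 and 1.23 FPKM in mHet, and 1.05 and 2.59 FPKM in mKO. In both genes mHet library 1 lay nearer to WT and mHet library 2 nearer to mKO.

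Pir, which encodes the iron-binding nuclear protein pirin, stood at 3.15 and 2.26 FPKM in WT and was listed at 0 in both mKO libraries. Tspan6, a tetraspanin, stood at 11.3 and 3.63 FPKM in WT and at 0.19 and 0.63 FPKM in mKO, with 80.6 and 65.6 FPKM in the WT epiblast. Arxes1 stood at 5.63 and 3.99 FPKM in WT and at 0.53 and 0.81 FPKM in mKO, and its neighbour Arxes2 at 13.5 and 12.6 FPKM and at 1.01 and 3.01 FPKM. This pair is near identical in sequence, so the reads of one cannot be fully told from those of the other. The X-linked Rhox and Xlr clusters, homeobox and lymphocyte-regulated gene families read in trophoblast and germ cells, had 19 of 20 members kept below 0, with a median log2 change of -0.50. Of all X-linked genes 331 of 423 lay below 0, and of all genes tested 66.5%, with medians of -0.30 and -0.19. Xlr4c was the one at an unadjusted p under 0.05, with 20.2 and 20.0 FPKM in WT, 22.5 and 7.71 FPKM in mHet, and 6.66 and 8.36 FPKM in mKO.

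**Figure D4:**
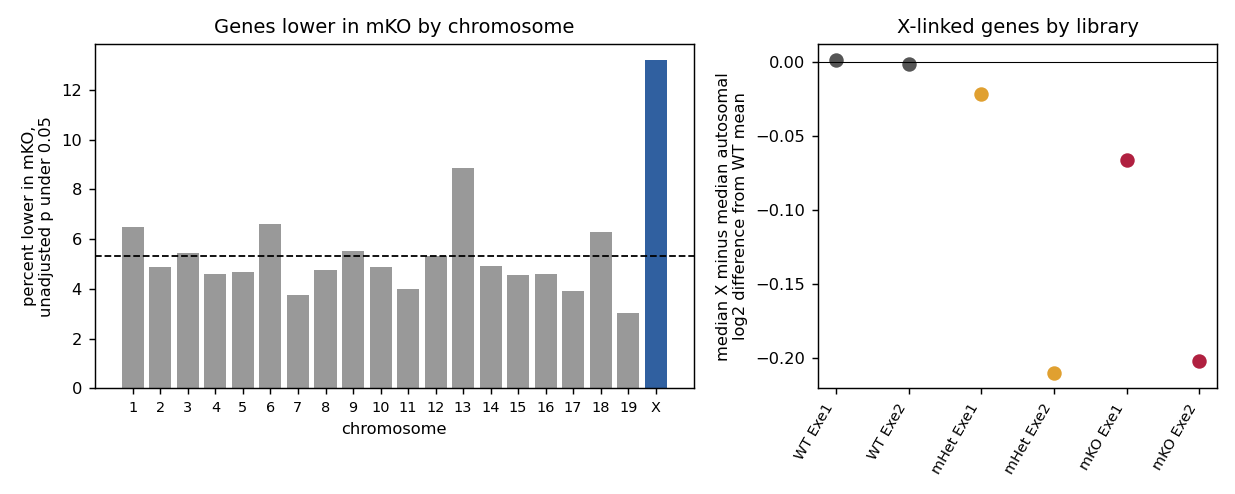
The left panel gives, per chromosome, the percentage of genes tested that were lower in mKO at an unadjusted p under 0.05, with the dashed line at 5.32% for all genes. The right panel gives, per extraembryonic ectoderm library, the median difference of X-linked genes from the WT mean less that of autosomal genes (log2), which is near 0 in WT by construction and lies between -0.21 and -0.02 in mHet and mKO.

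No marker of the trophoblast stem cell state passed the test. None of the 12 extraembryonic ectoderm markers had an unadjusted p under 0.05. Both mKO libraries lay above both WT libraries for 4 of the 12 and below both for 0, against 14% and 37.4% of all genes. Their median log2 change was 0.15, against -0.19 over all genes. Eomes, a T-box factor of trophoblast stem cells, stood at 60.1 and 58.6 FPKM in WT and at 45.1 and 86.7 FPKM in mKO. Cdx2, the homeobox factor of the trophectoderm, stood at 3.17 and 4.71 FPKM in WT and at 4.55 and 5.45 FPKM in mKO. Bmp4, the ligand that the tissue sends to the epiblast, stood at 52.5 and 61.6 FPKM in WT and at 56.3 and 64.7 FPKM in mKO. For each of the 3 the groups overlapped. The other markers included Esrrb, Tfap2c, Wnt7b, Fgfr2, Cdh3, Duox2 and Bmp8b, with log2 changes between -0.38 for Duox2 and 0.79 for Cdh3, beside 0.05 for Elf5.

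Among 19 trophoblast transcription factors kept, 15 had a log2 change above 0 and 3 (15.8%) were higher at an unadjusted p under 0.05, against 2.42% of all genes, while 0 were lower. Hand1, which drives giant cell differentiation, stood at 23.8 and 28.9 FPKM in WT, 52.1 and 46.9 FPKM in mHet, and 65.3 and 109 FPKM in mKO. Klf5, a Krüppel-like factor needed for the trophectoderm, stood at 11.3 and 13.2 FPKM in WT, 15.5 and 26.8 FPKM in mHet, and 60.0 and 27.8 FPKM in mKO. Gata3, a zinc finger factor of the trophoblast lineage, stood at 7.29 and 10.9 FPKM in WT, 11.4 and 17.2 FPKM in mHet, and 21.6 and 19.8 FPKM in mKO. For all 3 both mHet libraries lay above both WT libraries and below both mKO libraries, for Klf5 narrowly (26.8 against 27.8 FPKM). How many of all genes show this order was not counted. Their log2 changes were 1.65 (SE 0.53), 1.66 (SE 0.64) and 1.12 (SE 0.51), with limma adjusted p of 0.489, 0.572 and 0.633. The number of these 19 factors higher at that level fell when either WT library or mKO library 1 was left out. Their median log2 change was 0.24. It was 0.09 without WT library 1, 0.45 without WT library 2, 0.31 without mKO library 1 and 0.12 without mKO library 2. With a pseudocount of 0.1, 0 were higher, against 1.80% of all genes. In the 6 extraembryonic ectoderm libraries alone 3 were higher. With the epiblast level added to that fit 0 were, against 0.44% of all genes.

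Of 39 genes of the ectoplacental cone and giant cells, 11 were kept. Of these, 3 (27.3%) were higher and 2 (18.2%) lower at an unadjusted p under 0.05, against 2.42% and 5.32% of all genes. The higher genes include Hand1, already counted among the trophoblast transcription factors. With a pseudocount of 0.1 the counts were 1 and 3. Itga7, an integrin chain that binds laminin, stood at 2.61 and 2.42 FPKM in WT, 3.23 and 5.55 FPKM in mHet, and 8.14 and 5.54 FPKM in mKO. Plac1, a placenta-specific X-linked gene, stood at 16.8 and 1.37 FPKM in WT and at 0 and 0.87 FPKM in mKO. The spread of Plac1 between the WT libraries exceeded its difference between WT library 2 and mKO.

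No core subunit of PRC2 passed the test. All 6 core subunits had a log2 change below 0, between -0.58 for Rbbp7 and -0.25 for Suz12, against a median of -0.19 over all genes, and 0 had an unadjusted p under 0.05. Ezh2, the main catalytic subunit, stood at 37.1 and 36.9 FPKM in WT and at 22.6 and 33.8 FPKM in mKO. Eed, which binds the mark, stood at 61.6 and 71.9 FPKM in WT and at 48.0 and 50.9 FPKM in mKO. Of 19 subunits of PRC1 and H3K27 demethylases kept, 1 (5.26%) was higher at that level, against 2.42% of all genes. This was Phc3, a polyhomeotic subunit, with 0.35 and 0.52 FPKM in WT and 1.19 and 1.20 FPKM in mKO. Of 154 developmental regulators of the kind often held under H3K27me3 that are in the table, 15 passed the filter. Of those 4 (26.7%) were higher and 1 (6.67%) lower at an unadjusted p under 0.05, against 2.42% and 5.32% of all genes. The 4 include Hand1 and Gata3, already counted among the trophoblast transcription factors, so these lists are not separate. With a pseudocount of 0.1, 0 were in either direction, against 1.80% and 6.57% of all genes. In the 6 extraembryonic ectoderm libraries alone 3 were higher and 0 lower. With the epiblast level added to that fit 0 were in either direction, against 0.44% and 0.57% of all genes. Irx3, an Iroquois homeobox gene, stood at 7.64 and 5.81 FPKM in WT and at 19.7 and 12.3 FPKM in mKO, and at 8.84 and 32.4 FPKM in mHet.

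The classically imprinted genes, whose silencing rests on DNA methylation inherited from a gamete, were counted apart. Of 23 maternally expressed genes kept, 2 (8.70%) were higher and 1 (4.35%) lower at an unadjusted p under 0.05. Of 16 paternally expressed genes 0 were higher and 4 (25.0%) lower. Over all genes the shares were 2.42% higher and 5.32% lower. In the 6 extraembryonic ectoderm libraries alone 3 of the 16 were lower. With the epiblast level added to that fit 0 were, but there only 0.57% of all genes were lower. Snrpn, which encodes a spliceosomal protein, stood at 54.6 and 41.7 FPKM in WT, 31.6 and 7.38 FPKM in mHet, and 10.3 and 17.5 FPKM in mKO. Snurf, read from the same transcript, followed it with 64.2 and 48.2 FPKM in WT and 10.8 and 17.7 FPKM in mKO, so these count as 1 locus. Ndn, which lies in the same imprinted domain as Snrpn, stood at 2.41 and 1.43 FPKM in WT and at 0 and 0.76 FPKM in mKO, and Peg12 of that domain had a log2 change of -1.02 (SE 0.37). All 4 lower members thus came from 1 domain. Snrpn was also higher in the epiblast, at 179 and 299 FPKM in WT.

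On the maternal side, Gnas, which encodes a G protein subunit, stood at 27.7 and 38.2 FPKM in WT and at 58.2 and 66.5 FPKM in mKO, with 35.5 and 67.9 FPKM in mHet. Mirg, a long non-coding RNA of the Dlk1 domain, stood at 2.67 and 3.16 FPKM in WT and at 4.61 and 10.7 FPKM in mKO. Slc22a18, a transporter gene, stood at 3.44 and 0.56 FPKM in WT and at 0.12 and 0.22 FPKM in mKO. H19, a long non-coding RNA abundant in trophoblast and picked after its values were seen, stood at 170 and 298 FPKM in WT, 180 and 579 FPKM in mHet, and 708 and 512 FPKM in mKO. Its groups did not overlap, yet mHet library 2 lay within the mKO range, and the adjusted p was 0.707.

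Immediate early genes are the transcripts induced within minutes of a stimulus without new protein synthesis, and their summed level was highest in mHet and in mKO library 1. Of 22 kept, 8 (36.4%) were higher and 0 lower at an unadjusted p under 0.05, against 2.42% and 5.32% of all genes, and their median log2 change was 1.03. Their summed level over 24 genes was 150 and 151 FPKM in WT, 482 and 643 FPKM in mHet, and 578 and 221 FPKM in mKO. Junb, an AP-1 subunit, stood at 4.29 and 6.05 FPKM in WT, 22.8 and 41.8 FPKM in mHet, and 50.4 and 10.9 FPKM in mKO. Ier3 stood at 7.15 and 11.1 FPKM in WT, 28.8 and 53.7 FPKM in mHet, and 31.1 and 38.0 FPKM in mKO. Fosl1, another AP-1 subunit, stood at 2.88 and 3.37 FPKM in WT, 12.0 and 7.88 FPKM in mHet, and 10.7 and 6.13 FPKM in mKO.

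The immediate early level was thus uneven within mKO. Without mKO library 1 the list held 1 gene higher at an unadjusted p under 0.05 and a median of 0.30, and without mKO library 2 it held 14 and a median of 1.67. The highest Rn45s shares were those of mHet library 2 (11.6%) and mKO library 1, and without both the list held 3 such genes and a median of 0.30. In the 6 extraembryonic ectoderm libraries alone the list held 5 such genes. With the epiblast level added to that fit it held 0, but there only 0.44% of all genes were higher. The part of Rn45s-rich libraries in the count was not tested further. The epiblast libraries had a like order, with summed levels of 59.8 and 63.9 FPKM in WT, 253 and 286 FPKM in mHet, and 253 and 91.5 FPKM in mKO. Among stress genes, Ddit4, an inhibitor of mTORC1, stood at 0.09 and 0.12 FPKM in WT, 1.14 and 1.98 FPKM in mHet, and 3.18 and 2.62 FPKM in mKO. Nupr1, a stress-induced chromatin protein, stood at 2.01 and 3.31 FPKM in WT, 1.60 and 2.11 FPKM in mHet, and 7.17 and 10.1 FPKM in mKO. Atf3 and Ddit3 completed the 4 of 25 genes (16.0%) of the p53 and integrated stress response that were higher at that level, and 1 (4.00%) was lower, against 2.42% and 5.32% of all genes. The number higher was 3 in the 6 extraembryonic ectoderm libraries alone. It was 1 (4.0%) with the epiblast level added to that fit, against 0.44% of all genes.

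Signalling genes that stood lower included several read in the epiblast. In the BMP, Nodal and Activin list, 1 of 26 genes (3.85%) was higher and 3 (11.5%) were lower at an unadjusted p under 0.05. Over all genes the shares were 2.42% and 5.32%. The 3 lower genes were Tdgf1, Nodal and Id3. Id3, a target of BMP signalling that blocks helix-loop-helix factors, stood at 37.6 and 13.7 FPKM in WT, 10.4 and 4.12 FPKM in mHet, and 2.10 and 6.76 FPKM in mKO. Furin, the protease that matures such ligands, was the higher one, at 0.82 and 0.94 FPKM in WT and 1.94 and 2.09 FPKM in mKO. In the FGF and ERK list, 2 of 26 (7.69%) were higher and 4 (15.4%) lower, against 2.42% and 5.32% of all genes. Fgf8 and Fgf5, both epiblast and streak ligands, were listed at 0 in mKO, and Fgf8 stood at 9.52 and 1.22 FPKM in WT. Spred2 and Spred1, a pair of ERK inhibitors, stood on opposite sides, with log2 changes of 0.85 (SE 0.31) and -0.76 (SE 0.31). Of 20 genes of WNT signalling 0 had an unadjusted p under 0.05, against 7.74% of all genes.

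Other lists held few such genes. Of 11 genes of DNA methylation and demethylation 0 had an unadjusted p under 0.05, against 7.74% of all genes. Of 38 cell cycle genes 1 (2.63%) was lower, against 5.32% of all genes. This was Ccne2, the gene of cyclin E2, with 12.6 and 14.4 FPKM in WT and 7.19 and 4.85 FPKM in mKO. Of 25 cholesterol synthesis genes 21 had a log2 change below 0, against 66.5% of all genes, and 2 (8.00%) were lower at that level, against 5.32%. Lss, the lanosterol synthase, stood at 9.16 and 6.77 FPKM in WT, 14.2 and 12.3 FPKM in mHet, and 3.23 and 3.77 FPKM in mKO, so mHet lay above WT and mKO below it. Idi1, the isopentenyl diphosphate isomerase, stood at 43.0 and 26.6 FPKM in WT, 44.0 and 9.21 FPKM in mHet, and 9.31 and 9.36 FPKM in mKO. Among 31 genes of glycolysis and hypoxia, 3 (9.68%) were higher and 2 (6.45%) lower, against 2.42% and 5.32% of all genes. Hk1, a hexokinase, stood at 3.17 and 4.49 FPKM in WT and at 7.76 and 7.84 FPKM in mKO, while Ldhb, a lactate dehydrogenase chain, stood at 28.7 and 34.5 FPKM in WT and at 11.6 and 14.7 FPKM in mKO. Of 19 germline genes 4 (21.1%) were lower and 0 higher, against 5.32% and 2.42% of all genes. The number lower was also 4 in the 6 extraembryonic ectoderm libraries alone. It was 1 (5.26%) with the epiblast level added to that fit, against 0.57% of all genes. Dppa3, a maternal factor also read in germ cells, stood at 0.73 and 1.33 FPKM in WT and was listed at 0 in mKO, and Ddx25, an RNA helicase, stood at 4.64 and 4.31 FPKM in WT and at 0.44 and 1.68 FPKM in mKO.

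**Figure D5:**
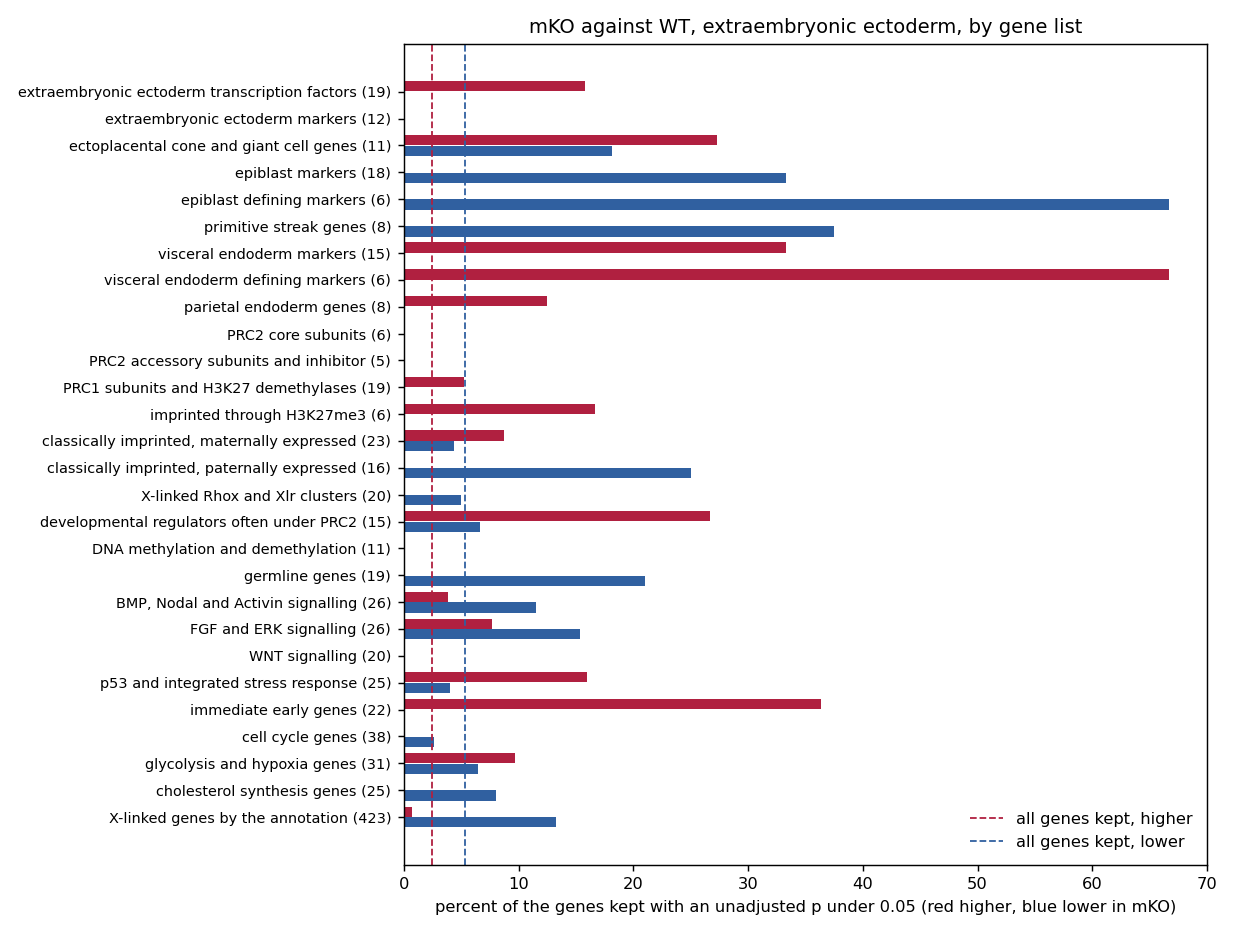
Bars give the percentage of each list's genes kept (number in brackets) that were higher (red) or lower (blue) in mKO with an unadjusted p under 0.05, and dashed lines give 2.42% and 5.32% for all genes. Epiblast lists extend on the lower side and visceral endoderm and immediate early lists on the higher side, and no gene passed after adjustment.

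Against mHet, 1 of 11028 genes (0.00907%) had an adjusted p under 0.05 in mKO, and it was lower. This was Ccl20, at 11.6 and 5.08 FPKM in mHet and listed at 0 in both mKO libraries, with a difference on the log2(FPKM + 1) scale of -3.13 (SE 0.32, limma adjusted p = 0.00479). At an unadjusted p under 0.05 there were 272 genes (2.47%), 125 (1.13%) higher and 147 (1.33%) lower. The call on Ccl20 was lost where only mHet and mKO, or only the 6 extraembryonic ectoderm libraries, entered the fit, where 0 genes passed. Without mHet library 1 the count was 402, of which 385 were higher in mKO. That fit leaves mHet library 2 alone in its group, the library with the highest Rn45s share (11.6%) and the lowest summed FPKM of the 6 extraembryonic ectoderm libraries, in which 64.8% of genes lay below both WT libraries, and its part in the count was not tested. Without mKO library 1 the count was 12, and without mKO library 2 it was 3. The second smallest p belonged to Smoc1, with a log2 change of 1.59 (SE 0.25). It did not pass, with an adjusted p of 0.189.

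The difference between tissues was tested directly, as the mKO change in extraembryonic ectoderm less that in the epiblast. Of 11028 genes 0 (0%) passed, and 376 (3.41%) had an unadjusted p under 0.05, 92 (0.834%) with a more positive and 284 (2.58%) with a more negative change in extraembryonic ectoderm. Leaving out mKO library 1 of the extraembryonic ectoderm gave 5 genes. One epiblast library, mKO with column number 3, carried extraembryonic ectoderm transcripts, with Elf5 at 18.4 FPKM (15.2% of the WT extraembryonic ectoderm mean) and Bmp4 at 18.9 FPKM. For the genes imprinted through H3K27me3 other than Xist, that library also held the highest of the 6 epiblast values, with Gab1 at 8.76 FPKM, Sfmbt2 at 4.11 FPKM and Slc38a4 at 31.2 FPKM. For Mtfr1 the difference was -3.02 and for Smoc1 1.16 on the log2 scale, each with an adjusted p of 0.972. An effect of mKO on either gene is thus not shown to differ between the tissues.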

How the data were processed

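The members and gene lists were chosen with earlier results of these data known. Polyadenylated RNA was sequenced on a DNBSEQ-T7 instrument after Smart-seq2, per the labels' protocols. The deposited table of the E6.5 libraries gives FPKM per gene, made by the authors, per the file headers. The submitters' processing notes list Trim Galore 0.4.2, HISAT2 2.2.1, HTSeq 0.6.0 and, with no role stated, the builds mm9 and hg19. The sources used here do not state how FPKM were computed, or with which annotation and strand setting. FPKM are shares of a library, so an abundant RNA lowers all others. Low values shared no common step between libraries (the most frequent ratio held at most 2.84% of genes), so whole reads could not be recovered.

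The filter kept 11028 of 23664 genes, those reaching 1 FPKM in at least 2 of 12 libraries. Group means of log2(FPKM + 1) were estimated by lmFit and eBayes with trend (limma 3.58.1, R 4.3.3), all 12 libraries sharing 1 spread, with two-sided p adjusted by Benjamini and Hochberg over all genes kept and a threshold of 0.05. Log2 changes are on that scale and understate low genes. The fit was tested on simulated data. Named genes are, in each direction, the 10 of smallest p whose groups did not overlap, whose higher group mean was at least 2 FPKM and which are not predicted models, plus list members: all of the H3K27me3-imprinted genes and markers, and up to 4 per other list by smallest p. Klhl13, Arxes2, Irx3, H19, Apom and the sequence choice were added after values were seen. Epiblast columns carry numbers that differ from the titles and were matched to their group alone. Replicate numbers did not pair WT and mKO (correlation of deviations -0.00499). Chromosomes were taken by gene name from GRCm38.p6 for 98.4% of genes kept.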

Additional observations from a re-analysis of the deposited data

How the results depend on the processing

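The limits are those of 2 libraries a group, unknown depth, and neighbouring tissue that differs between the libraries. The count of genes past the threshold between mKO and WT, 0 as reported, was 8 with a pseudocount of 0.1 (all lower), 1 with no filter on low values, 4 with median ratio scaling (all lower), 5 with the visceral endoderm level as a term, 20 without the 2 libraries of highest Rn45s share and 15 without both mHet libraries (the last 2 chosen after seeing the data). Leaving out 1 library at a time gave 0 to 15, and the remaining alternatives gave 0. Between mKO and mHet the count of 1 became 5 with no filter, 0 with only the groups compared, 0 with the 6 extraembryonic ectoderm libraries alone, 0 with the epiblast level as a term, and 6 without the 2 libraries of highest Rn45s share. Leaving out 1 library at a time gave 1 to 402. For the difference between tissues the count of 0 became 1 with the pseudocount of 0.1, 7 with no filter, 3 with only the groups compared and 5 without the 2 libraries of highest Rn45s share, and leaving out 1 library gave 0 to 5. With the replicate number as a block the 3 counts were 0, 1 and 0. Deviations of mHet and mKO correlated at -0.162, and the crossed pairing gave 1 gene. Of 25 genes followed, 22 kept their direction under all alternatives. Most of these were the 10 named genes in each direction, chosen for groups that did not overlap. Leaving out a library could not reverse those. Sfmbt2, -0.07 as reported, was 0.19 with median ratio scaling, 0.18 with the visceral endoderm level, 0.42 with the epiblast level, 0.17 without WT library 1, 0.12 without mKO library 2 and 0.36 without WT library 1 and mKO library 2 together, with a range of -0.31 to 0.17 when 1 library was left out. Slc38a4, 0.18 as reported, was -0.17 with the visceral endoderm level, -0.12 without mKO library 2 and -0.14 without that pair, with a range of -0.12 to 0.48 when 1 library was left out. Xist, 0.47 as reported, was -2.75 with the epiblast level, -0.92 without WT library 1, -0.93 without mKO library 1 and -0.93 without the 2 libraries of highest Rn45s share. Its range when 1 library was left out was -0.93 to 1.87. The causes were not tested.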
